A study of Mus musculus with 15 samples.

Results

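The levels of 10 G protein-coupled receptors that steer T cells were followed in splenic regulatory T cells (Treg): Gpr183, S1pr1, Gpr15, Ccr6, Ccr4, Ccr8, Ccr2, Ccr7, Cxcr5 and Cxcr4. The members were taken by name, with earlier results of these data known. Each of the 10, of 19752 genes measured, had 1 transcript cluster annotated to it alone. Treg of 6-week-old male mice were sorted as CD3+ TCR beta+ CD4+ cells positive for the EGFP reporter of Foxp3EGFPCre, and each array took RNA of 40000 to 50000 cells, pooled over mice. Mice of all 4 groups carried Foxp3EGFPCre, which places Cre under the control of Foxp3. The control group carried this allele alone (4 arrays, numbers 2 to 5). The N1c group also carried R26N1c/N1c, both copies of an allele that expresses the active intracellular domain of Notch1 once Cre has acted (4 arrays, numbers 1, 2, 4 and 5). The RBPJdel group carried RBPJ∆/∆ from a cross with RBPJfl/fl, a deletion in Rbpj, which encodes the factor that carries this domain to DNA (4 arrays, numbers 1 to 4). The N1c_RBPJdel group carried both (3 arrays, numbers 1 to 3). A FACSAria sorted the N1c_RBPJdel cells and a MoFlo the cells of the other groups, so sorter and genotype cannot be told apart in comparisons of that group. In a bulk sample, fewer cells with a transcript and less of it per cell cannot be told apart either.

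Homing receptors are transmembrane proteins that couple to inhibitory G proteins and turn a gradient of chemokine or lipid into directed movement. Ccr7 and Cxcr5 guide lymphocytes to the T cell zone and the follicle of lymphoid organs. Gpr183 reads oxysterols and places cells at the edges of those zones, and S1pr1 reads sphingosine 1-phosphate and lets cells leave into blood or lymph. Ccr4, Ccr6, Ccr8, Gpr15 and Ccr2 are known for entry into skin, gut and inflamed tissue, and Cxcr4 for retention in bone marrow. Treg that have been activated tend to exchange receptors of the first kind for those of the second.

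The start regions of 3 receptors are shown because their levels set all N1c arrays apart from all other arrays, with Gpr183 and Gpr15 highest and Ccr6 lowest there. Each window runs from 250 bases before to 50 bases after the start site, 5′ to 3′ on the strand of the gene, from RefSeq on GRCm38.p6. Capitals mark the core letters bound by RBPJ, TGGGAA, searched on both strands; on the opposite strand they read TTCCCA.
Gpr183, chr14:121965144-121965443, minus strand: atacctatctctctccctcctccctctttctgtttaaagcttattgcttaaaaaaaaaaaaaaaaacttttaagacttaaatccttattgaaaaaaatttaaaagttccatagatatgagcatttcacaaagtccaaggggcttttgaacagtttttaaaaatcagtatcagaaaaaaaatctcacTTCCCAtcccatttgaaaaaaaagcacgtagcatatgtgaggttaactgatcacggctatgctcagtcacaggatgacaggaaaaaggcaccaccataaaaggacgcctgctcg
Gpr15, chr16:58718823-58719122, minus strand: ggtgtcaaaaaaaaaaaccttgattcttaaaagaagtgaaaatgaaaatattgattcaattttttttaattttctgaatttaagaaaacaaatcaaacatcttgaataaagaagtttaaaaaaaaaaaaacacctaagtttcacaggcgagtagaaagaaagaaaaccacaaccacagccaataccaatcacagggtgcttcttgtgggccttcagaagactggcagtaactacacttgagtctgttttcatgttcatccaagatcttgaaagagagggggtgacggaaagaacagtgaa
Ccr6, first start, chr17:8235793-8236092, plus strand: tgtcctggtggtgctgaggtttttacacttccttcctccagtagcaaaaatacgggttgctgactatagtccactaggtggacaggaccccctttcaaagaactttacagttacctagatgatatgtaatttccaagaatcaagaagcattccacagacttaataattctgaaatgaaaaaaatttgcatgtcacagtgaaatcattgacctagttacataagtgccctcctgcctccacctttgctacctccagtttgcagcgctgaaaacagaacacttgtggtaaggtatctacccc
Ccr6, the other start, chr17:8242276-8242575, plus strand: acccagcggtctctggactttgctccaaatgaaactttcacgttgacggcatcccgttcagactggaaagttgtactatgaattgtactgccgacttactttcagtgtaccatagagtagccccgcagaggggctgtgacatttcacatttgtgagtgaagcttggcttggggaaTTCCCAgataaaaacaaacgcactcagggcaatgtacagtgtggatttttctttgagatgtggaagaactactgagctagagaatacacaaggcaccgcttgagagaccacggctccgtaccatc

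The Gpr183 window held the core once, beginning 64 bases upstream of the start site, and the other start of Ccr6 held it once, 75 bases upstream. Neither match extended to the longer GTGGGAA. The windows of Gpr15, of the first start of Ccr6 and of Ccr2, Ccr4, Ccr8 and Cxcr4 held no match, so 2 of the 8 windows of these receptors had one. Over all 32851 windows of this length 25.6% held TGGGAA and 6.4% held GTGGGAA, which overlaps it. These letters are a description of the windows and not of binding.

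The labels were checked first. The geometric mean of Rbpj was 497 for control, 521 for N1c, 267 for RBPJdel and 209 for N1c_RBPJdel, and its change passed the test in RBPJdel against control (-0.90 ± 0.12, SE, adjusted p = 0.00213). Notch1 and Foxp3 passed in no comparison; Foxp3 ran from 3543 to 6248 over the 15 arrays, and the other markers of Treg were bright on all of them (Il2ra 5326 to 7153). Array medians were 107.1 to 117.2, and correlations between arrays were 0.957 to 0.996. The summed intensity of 5 erythroid markers was 421 to 1188 in N1c_RBPJdel and 283 to 344 on all other arrays. Of these 5 only Car1 passed in N1c_RBPJdel against control or N1c, at 360 against 60.2 and 59.4. The summed intensity of 8 neutrophil markers was 528 to 622 against 384 to 502. B cell marker sums (9 genes) were 705 to 747 in N1c and 749.8 to 1133 on the others. No other sum set a group apart.

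In N1c against control, which asks what active Notch1 does, 4 of the 10 receptors rose and 2 fell. Gpr183, Cxcr5, Gpr15 and Ccr4 rose, and Ccr6 and S1pr1 fell. Over all genes tested 1.65% passed in either direction, 0.937% higher and 0.714% lower. The 2 groups did not overlap for the same 6 receptors, against 5.73% of all genes. Because the receptors were chosen with earlier results known, these shares give a scale and are not a test. The median change of the 10 was 0.21, beside -0.01 over all genes. Changes are given on the log2 scale, as the difference of group means ± its standard error (SE), with 4 arrays a group except N1c_RBPJdel (3). With the replicate number as a block over all arrays, 494 genes were called in place of 326, and the same 6 receptors passed.

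**Figure D1:**
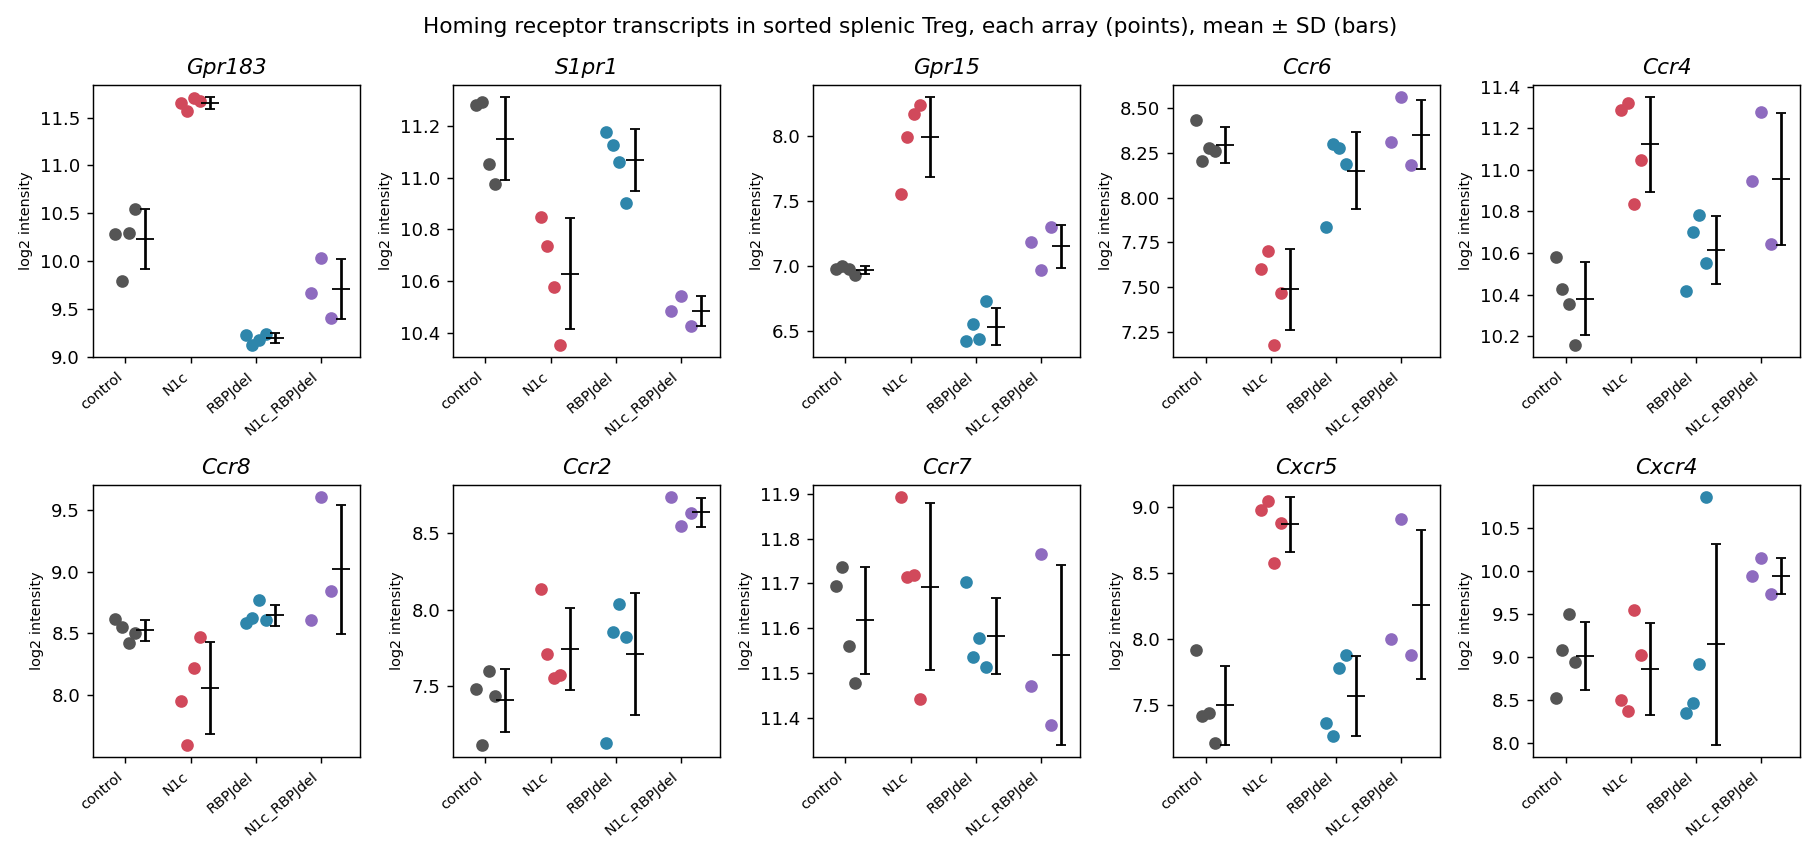
Log2 intensity (vertical axes, each on its own range) of the 10 receptors on each array, by group; points are arrays, and bars are the group mean ± SD. Gpr183, Gpr15 and Cxcr5 are highest in N1c, Ccr6 is lowest there, Ccr2 is highest in N1c_RBPJdel, and Ccr7 keeps overlapping ranges in all 4 groups.

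The lipid receptors come first. Gpr183 read 1248, 889, 1251 and 1491 on the control arrays and 3226, 3043, 3348 and 3270.5 on the N1c arrays, listed here and below by array number. On the RBPJdel arrays it read 601, 558, 577 and 602, and on the N1c_RBPJdel arrays 814, 1049.5 and 679. All N1c arrays lay above all others, all RBPJdel arrays lay below all others, and N1c_RBPJdel overlapped control. Gpr183 rose by 1.42 ± 0.14 in N1c against control, a 2.68-fold difference (adjusted p = 7.83e-06). It fell by 1.04 ± 0.14 in RBPJdel against control (adjusted p = 0.00213), the only receptor called there, where 0.111% of all genes passed, 0.0354% higher and 0.0759% lower. The groups did not overlap for 2 of the 10 receptors, Gpr183 and Gpr15, against 5.89% of all genes. Both calls held in all 24 alternatives.

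With both changes in the same cells, Gpr183 fell by 1.95 ± 0.15 against N1c (adjusted p = 3.76e-07), again in all 24 alternatives. Against control it changed by -0.52 ± 0.15 (adjusted p = 0.0404), a call that 14 of the 24 alternatives ended, with a highest adjusted p of 0.663 when N1c_RBPJdel 2 stood alone for its group (-0.19). Against RBPJdel the groups did not overlap, at 0.51 ± 0.15, but the test was not passed (adjusted p = 0.0765). The N1c effect was 0.51 with the deletion and 1.42 without it, an interaction of -0.91 ± 0.21 (adjusted p = 0.0475). That call lies at the threshold and was lost in 16 of 22 alternatives (adjusted p 0.0102 to 0.271).

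S1pr1 moved the other way. It read 2489, 2509.6, 2123 and 2015 on control arrays and 1842, 1706, 1529 and 1308 on N1c arrays. The RBPJdel arrays gave 2318, 2235, 2139 and 1916, and the N1c_RBPJdel arrays 1434, 1491 and 1375. Both groups with active Notch1 lay below both groups without it, with no overlap, while N1c overlapped N1c_RBPJdel and RBPJdel overlapped control. S1pr1 changed by -0.52 ± 0.11 in N1c (adjusted p = 0.0189) and by -0.67 ± 0.12 in N1c_RBPJdel against control (adjusted p = 0.00523). Against RBPJdel the change in N1c_RBPJdel was -0.58 ± 0.12 (adjusted p = 0.0244). Between N1c_RBPJdel and N1c it was -0.14, with a 95% interval of -0.40 to 0.11, and the interaction was -0.06, with an interval of -0.41 to 0.29. The call in N1c was lost in 5 of 24 alternatives (adjusted p up to 0.0884): without N1c 4, N1c 5, control 2 or control 3 and when only the 2 groups were fitted. The call in N1c_RBPJdel against control was lost with array 2 alone for its group (adjusted p = 0.0747). That against RBPJdel was lost in 5 of 24 (adjusted p up to 0.156): with array 2 alone and without N1c_RBPJdel 1 or RBPJdel 1, 2 or 3.

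Among receptors of gut and skin, Gpr15, known from homing to the large intestine, was, like Gpr183, highest in N1c and lowest in RBPJdel. It lay at 126, 128, 126 and 122 on control arrays and at 188, 254, 288 and 301 on N1c arrays. RBPJdel arrays gave 86.0, 94.0, 86.7 and 106, and N1c_RBPJdel arrays 146, 125 and 157. The N1c arrays were above and the RBPJdel arrays below all others, and N1c_RBPJdel overlapped control. Gpr15 rose by 1.02 ± 0.13 in N1c (adjusted p = 0.000147, called in all 24 alternatives). Its difference of -0.43 ± 0.13 in RBPJdel did not pass (adjusted p = 0.470; 0.0158 with array weights), although the groups did not overlap. Levels of Gpr15 in control and RBPJdel were near the array medians.

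In N1c_RBPJdel, Gpr15 fell by 0.84 ± 0.14 against N1c (adjusted p = 0.00133) and rose by 0.62 ± 0.14 against RBPJdel (adjusted p = 0.0301). The first call was lost in 1 of 24 alternatives, the replicate block in the 2 groups alone (adjusted p = 0.130), and the other in 7. Against control the change was 0.18, with an interval of -0.11 to 0.47. Its interaction, -0.40 ± 0.19, did not pass (adjusted p = 0.383).

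Ccr6, the receptor of Ccl20, is used by Treg and Th17 cells of the gut. It read 346, 295, 309 and 307 on control arrays against 195, 208, 145 and 177 on N1c arrays. RBPJdel arrays gave 229, 315, 310.1 and 291, and N1c_RBPJdel arrays 318, 377 and 290.3. Each N1c array lay below every other array, and the other 3 groups overlapped. Ccr6 fell by 0.81 ± 0.13 in N1c (adjusted p = 0.00141, all 24 alternatives) and rose by 0.86 ± 0.14 in N1c_RBPJdel against N1c (adjusted p = 0.00102; lost with the replicate block in the 2 groups alone, adjusted p = 0.0675). Ccr6 is also a gene of B cells. Their marker sums were 705 to 747 in N1c, 749.8 to 829.7 in control, 815 to 953 in RBPJdel and 840.2 to 1133 in N1c_RBPJdel. Of the 9 B cell markers 0 passed limma's test in N1c against control, also at an unadjusted p under 0.05. In N1c_RBPJdel against N1c 4 rose, and 7 had an unadjusted p under 0.05.

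The N1c effect on Ccr6 was -0.81 without and 0.20 ± 0.14 with the deletion of Rbpj, and this interaction of 1.01 ± 0.19 was called (adjusted p = 0.0131) and held in all 22 alternatives. N1c_RBPJdel and control differed by 0.06, with an interval of -0.23 to 0.35. RBPJdel and control differed by -0.14, with an interval of -0.41 to 0.13. With Gpr183, Ccr6 was 1 of 2 receptors whose interaction was called, where 0.840% of all genes passed, 0.319% above and 0.521% below 0.

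Ccr4 binds Ccl17 and Ccl22 and is a receptor of skin-homing and activated Treg. Control arrays gave 1530.5, 1378, 1312 and 1143, N1c arrays 2497, 2558, 1828 and 2114, RBPJdel arrays 1368, 1667, 1765 and 1501, and N1c_RBPJdel arrays 1975, 2486 and 1599.8. Both groups with active Notch1 lay above control, and N1c lay above RBPJdel too. Ccr4 rose by 0.74 ± 0.14 in N1c (adjusted p = 0.00813, all 24 alternatives). In N1c_RBPJdel against control it rose by 0.58 ± 0.15 (adjusted p = 0.0293), which 8 of 24 alternatives ended (adjusted p up to 0.173). Between N1c_RBPJdel and N1c it differed by -0.17, with an interval of -0.49 to 0.16. A return toward control with the deletion of Rbpj was not detected for Ccr4.

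Ccr8, the receptor of Ccl1 on tissue Treg, read 393, 375, 343 and 364 in control, 248, 194, 298 and 354 in N1c, 383, 394, 437 and 389.6 in RBPJdel, and 389.7, 777 and 459 in N1c_RBPJdel. N1c_RBPJdel lay above N1c without overlap, and array 2 was far above arrays 1 and 3. Ccr8 rose by 0.96 ± 0.20 in N1c_RBPJdel against N1c (adjusted p = 0.00713), which was lost when only these groups were fitted (adjusted p = 0.0628). Its change in N1c against control, -0.46 ± 0.18, did not pass (adjusted p = 0.404).

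Ccr2, the receptor of Ccl2, directs monocytes and effector T cells to inflamed tissue. It read 179, 138, 194 and 172 in control, 281, 209, 187 and 190.3 in N1c, 139.5, 231, 263 and 226 in RBPJdel, and 427, 374 and 397 in N1c_RBPJdel. All 3 arrays of N1c_RBPJdel exceeded all 12 others, while control, N1c and RBPJdel overlapped. Ccr2 rose by 1.23 ± 0.19 against control (adjusted p = 0.00215), by 0.90 ± 0.19 against N1c (adjusted p = 0.00686) and by 0.93 ± 0.19 against RBPJdel (adjusted p = 0.0205). The summed intensity of 6 monocyte and macrophage markers was 446 and 403 on N1c_RBPJdel arrays 1 and 3, above the 287 to 345 of the other groups, and 309 on array 2. Array 2 had neutrophil and erythroid marker sums of 585 and 655, above all arrays of the other groups. With array 2 alone for its group, which gives no spread of its own, Ccr2 was 1.14 higher than control. The calls against N1c (0.81) and RBPJdel (0.84) were then lost. Other settings ended these calls too: array weights and the replicate block in the 2 groups alone for N1c, and array weights, the fit of only these groups and leaving out N1c_RBPJdel 1 for RBPJdel. Of the 6 markers 1, Lyz2, passed in N1c_RBPJdel against N1c (51.0 to 96.5), and 0 passed against control. At an unadjusted p under 0.05 by limma there were 2 and 4 of the 6. Their median changes were 0.19 and 0.27, beside 0.02 over all genes in both. Whether monocytes had a part in the level of Ccr2 was not tested.

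**Figure D2:**
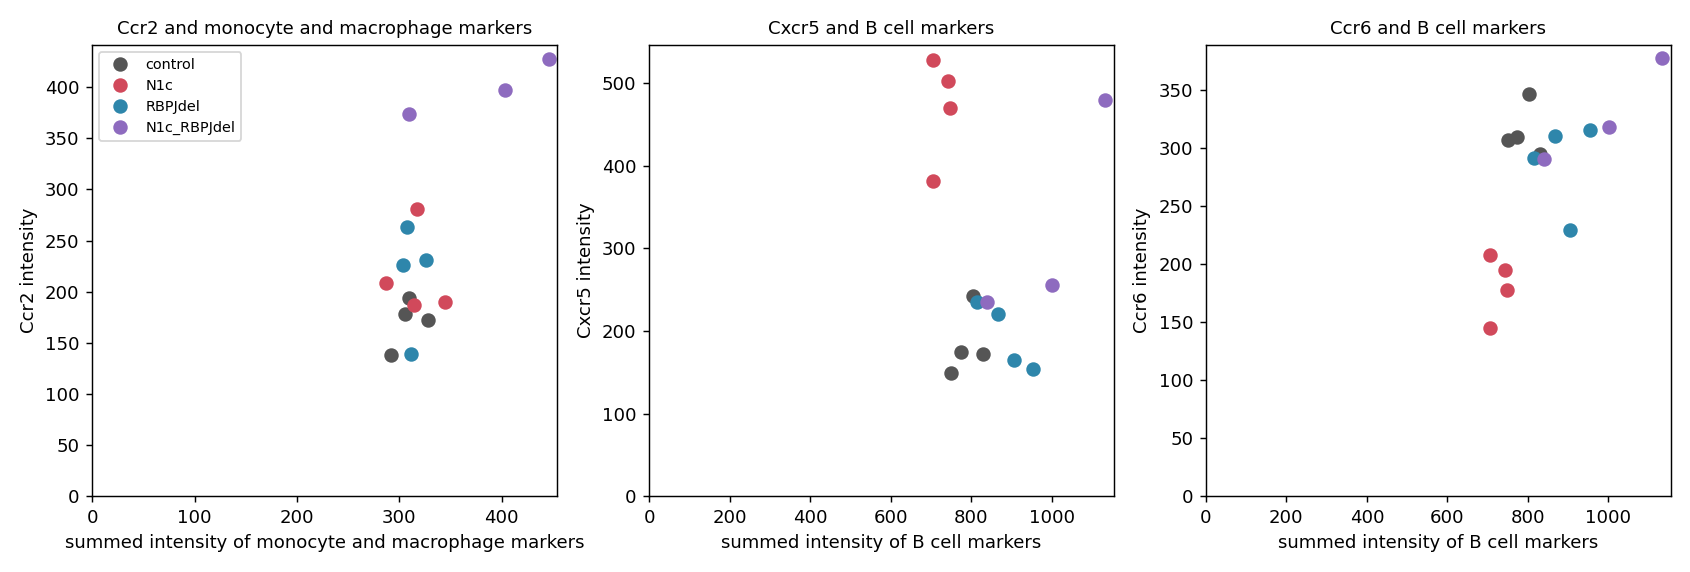
Intensity of Ccr2, Cxcr5 and Ccr6 (vertical axes) against the summed intensity of monocyte and macrophage markers (6 genes) or B cell markers (9 genes) on the same array; points are the 15 arrays, coloured by group. Ccr2 on the 3 N1c_RBPJdel arrays is 374 to 427 at marker sums of 309 to 446. Cxcr5 is 382 to 528 in N1c at B cell sums of 705 to 747. In control it is 149 to 242 at sums of 749.8 to 829.7. Cd79b is the brightest of the 9 B cell markers. The part of other cells in these levels was not tested.

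Of the receptors of lymphoid organs, Ccr7 differed little. It read 3315, 3412, 3019.8 and 2852 in control, 3803, 3362, 3372 and 2783 in N1c, 3333, 2967, 3058 and 2922 in RBPJdel, and 2839.8, 3484 and 2671 in N1c_RBPJdel. All groups overlapped, and no comparison of Ccr7 passed under any alternative. The change in N1c against control was 0.08, with an interval of -0.16 to 0.31.

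Cxcr5, which leads follicular T cells and B cells toward Cxcl13, read 242, 172, 174 and 149 in control and 503, 528, 382 and 469.5 in N1c. RBPJdel arrays gave 165, 154, 220.4 and 235, and N1c_RBPJdel arrays 256, 479 and 235. N1c lay above control and RBPJdel without overlap, and of the N1c_RBPJdel arrays only array 2 reached the N1c range. Cxcr5 rose by 1.37 ± 0.21 in N1c, a 2.58-fold difference (adjusted p = 0.000851, all 24 alternatives). Summed B cell markers were 705 to 747 in N1c and 749.8 to 829.7 in control, and 0 of the 9 passed in this comparison. Of these markers, Cd79b ran from 298 to 656 over all arrays, above every array median, and Ighm from 95.8 to 170.2. Cd79a and Ms4a1 ran from 23.7 to 69.9 and from 25.7 to 84.9, below every array median.

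In N1c_RBPJdel the level of Cxcr5 rested on array 2, which also had the highest B cell marker sum of all arrays (1133, against 1001 and 840.2 on arrays 1 and 3). The fall against N1c, -0.61 ± 0.22, did not pass (adjusted p = 0.0945); without array 2 it was -0.93 and passed (adjusted p = 0.00679), and with array 2 alone it was 0.04. The rise against control, 0.76 ± 0.22 (adjusted p = 0.0427), was lost without array 2 (0.44, adjusted p = 0.139) and in 11 of 24 alternatives. The 4 B cell markers that rose in N1c_RBPJdel against N1c included Cd79a (1.05) and Ms4a1 (0.97). Cd79b, the brightest marker in the sum, was not among them (0.43, adjusted p = 0.126 by limma). The sum on array 2 was not split by marker, so it does not show that the called markers were highest there. The part of B cell markers in the level of Cxcr5 and Ccr6 was not tested.

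Cxcr4, the receptor of Cxcl12, read 367, 540.1, 719 and 489.9 in control, 362, 330.4, 745 and 520.5 in N1c, 326, 353, 481 and 1851 in RBPJdel, and 977, 1135 and 848 in N1c_RBPJdel. N1c_RBPJdel lay above control and N1c, and RBPJdel 4 stood far above the other 3 arrays of its group. The SE of 0.41 in N1c against control was the largest of the 10 receptors. In the fit of all 15 arrays without a block Cxcr4 passed in no comparison (N1c_RBPJdel against N1c 1.08 ± 0.44, adjusted p = 0.129). Without RBPJdel 4 it was called higher in N1c_RBPJdel against N1c (1.08, adjusted p = 0.0151), control (0.93, adjusted p = 0.0332) and RBPJdel (1.36, adjusted p = 0.0216). With the replicate block over all arrays it was also called higher against N1c (1.52, adjusted p = 0.00190), control (1.44, adjusted p = 0.00308) and RBPJdel (1.14, adjusted p = 0.0125), and likewise with the block in the groups compared alone. With only the groups compared it was called against N1c (adjusted p = 0.0418) and control (adjusted p = 0.0487). In all, 4 of 24 alternatives called it against N1c, 4 against control and 3 against RBPJdel. Neutrophil markers, whose sums were highest in N1c_RBPJdel, rose there against N1c for 2 of 8 genes (5 at an unadjusted p under 0.05 by limma). Their part in the level of Cxcr4 was not tested.

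**Figure D3:**
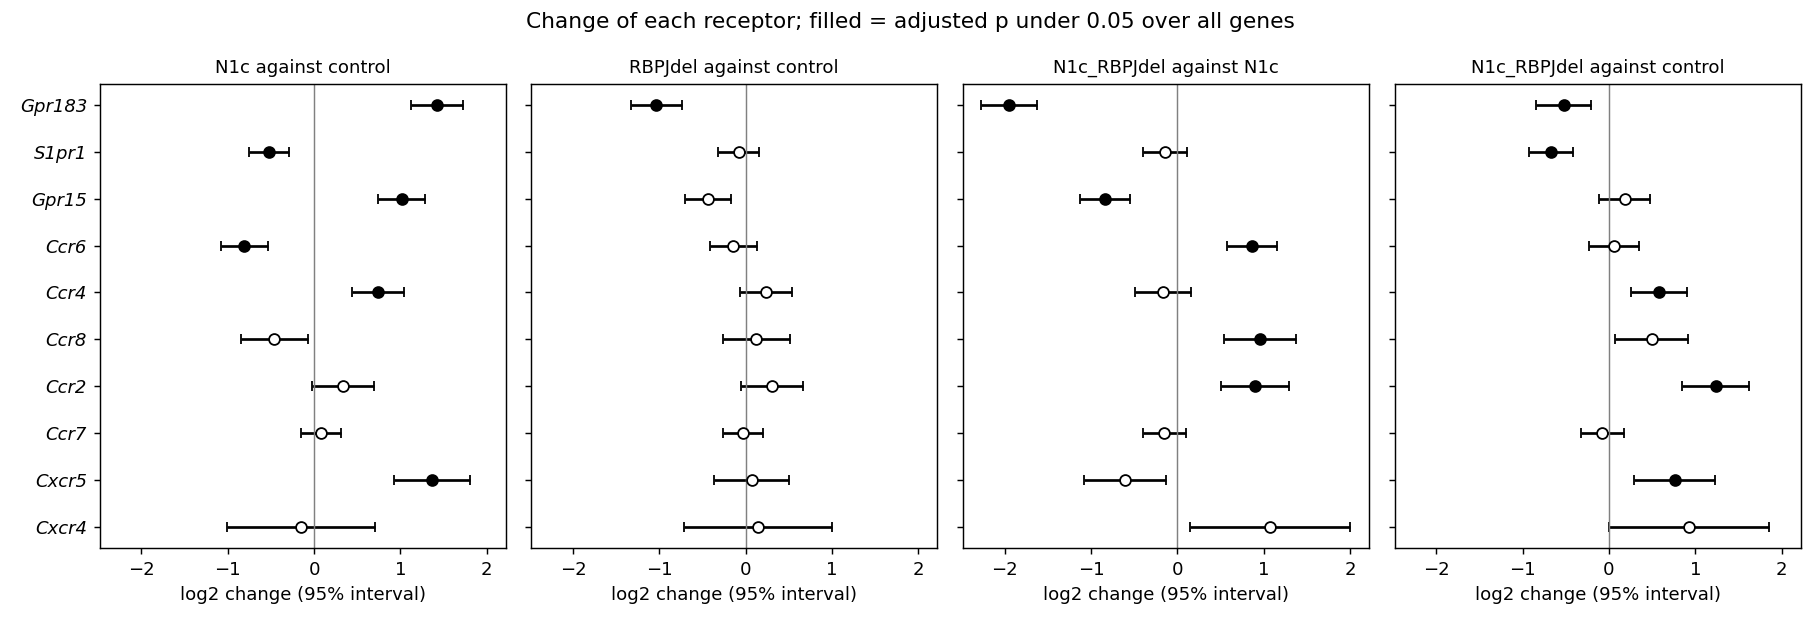
Log2 change (horizontal axis) of each receptor in 4 comparisons, with 95% intervals from the fit of all 15 arrays; filled points have an adjusted p under 0.05 over 19752 genes. Gpr183 and Gpr15 are right of 0 in N1c against control and left of it in N1c_RBPJdel against N1c, Ccr6 does the reverse, and the intervals of Cxcr4 are the widest.

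Counted by comparison, the receptors passed in both directions. N1c_RBPJdel against N1c compares cells with active Notch1 with and without the deletion of Rbpj, sorted on different instruments. There 3 of 10 rose (Ccr8, Ccr2 and Ccr6) and 2 fell (Gpr183 and Gpr15). Of all genes 9.23% passed, 4.58% higher and 4.65% lower. The groups did not overlap for 6 of 10, against 16.4% of all genes. Ccr8 and Ccr2 had no called change in N1c against control. In N1c_RBPJdel against control 3 rose (Ccr2, Cxcr5 and Ccr4) and 2 fell (S1pr1 and Gpr183), where 8.90% passed, 3.77% higher and 5.12% lower, and 4 of 10 did not overlap, against 18.7%. Against RBPJdel 2 rose (Ccr2 and Gpr15) and 1 fell (S1pr1), where 2.29% passed, 1.32% higher and 0.967% lower, and 4 of 10 did not overlap, against 15.8%. These comparisons share arrays, so the counts are not independent of each other. Without N1c_RBPJdel 1 the counts against control and against RBPJdel were 2 and 0. Median changes were -0.15 against N1c, 0.34 against control and 0.44 against RBPJdel, beside 0.02, 0.02 and -0.01 over all genes.

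**Figure D4:**
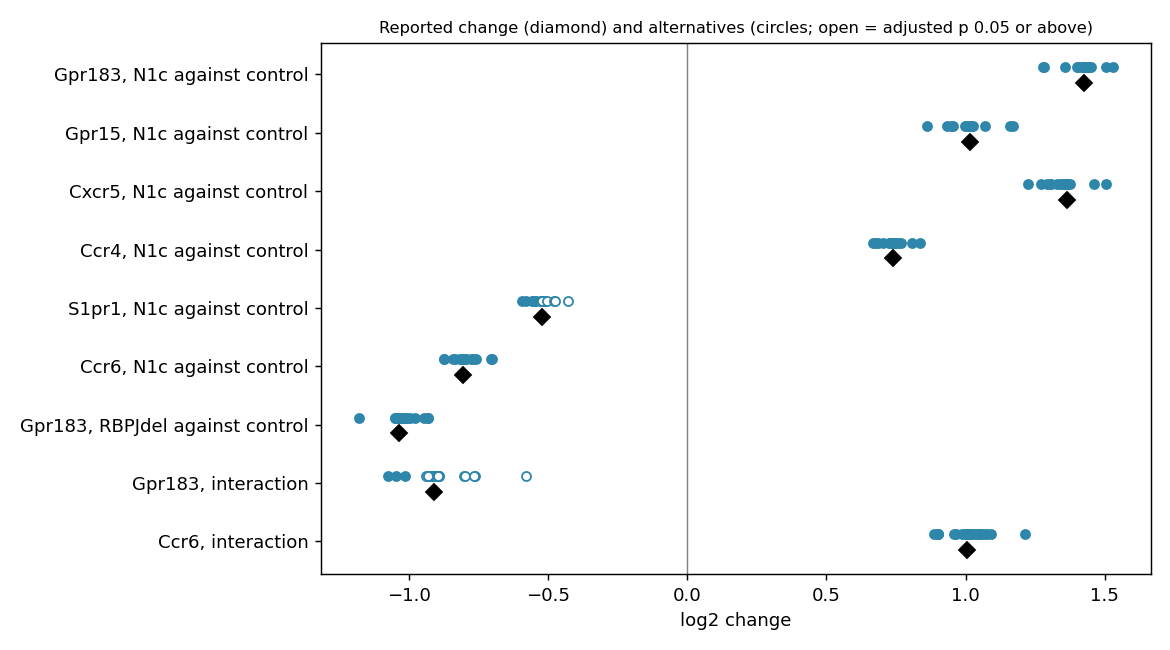
Log2 change (horizontal axis) of 9 receptor results as reported (diamonds) and under each alternative (circles, open where adjusted p was 0.05 or above). Calls of Gpr183, Gpr15, Cxcr5, Ccr4 and Ccr6 in N1c stay filled throughout, while those of S1pr1 and of the interaction of Gpr183 are partly open.

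Other receptors of the same families were counted from lists of known genes. Of 16 other chemokine receptors 0 passed limma's test in N1c against control (1 at an unadjusted p under 0.05, median 0.00, beside -0.01 over all genes), with Cxcr3, a receptor of Th1-like cells, at 739.9 against 523. Cxcr3 rose in RBPJdel against control by 1.22 ± 0.16 (523 to 1219, adjusted p = 0.00172) and in N1c_RBPJdel against N1c by 1.03. Ccr3, the eotaxin receptor, was the other one called in N1c_RBPJdel against N1c, at 1.04 (104 to 213). Of 22 other lipid and metabolite receptors 1 rose in N1c, Gpr18, where 0.937% of all genes rose. Gpr18 went from 695 to 1406 (1.02 ± 0.14, adjusted p = 0.000283) and fell by 0.68 in N1c_RBPJdel against N1c.

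Genes of the ligands of the 10 receptors, and of enzymes and transporters of these ligands, were also counted. By limma 0 of 21 passed in N1c or in RBPJdel against control, also at an unadjusted p under 0.05 (medians 0.01 and 0.04, beside -0.01 and 0.03). In N1c_RBPJdel against N1c 1 rose, Ccl12 (0.40, from 27.7 to 36.6, far below the array medians), where 4.58% of all genes rose. The adhesion list had 1 of 18 genes up and 2 down in N1c, where 0.937% of all genes rose and 0.714% fell. Itgae, the integrin chain that binds epithelial E-cadherin, rose by 1.14 ± 0.14 (322 to 709), Itgb1 fell by 1.10 ± 0.15 (868 to 405) and Itga4 fell by 1.02 ± 0.16 (3529 to 1742). Itgb1 and Itgae turned back in N1c_RBPJdel against N1c, by 1.31 and -1.19, where Icam1 rose by 0.45 and Itga6 fell by 0.67. The list's medians were -0.08 in N1c and -0.16 in N1c_RBPJdel against N1c, beside -0.01 and 0.02 over all genes.

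Downstream of the receptors, 1 of 37 genes of G protein signalling and migration passed in N1c, where 1.65% of all genes passed. It was the phospholipase gene Plcb3 (-0.54). In N1c_RBPJdel against N1c 3 rose and 6 fell, where 4.58% of all genes rose and 4.65% fell, with Rgs18 at 0.71 (16.6 to 27.0, far below the array medians), Gng2 at 0.70, Rasgrp2, an activator of the integrin switch Rap1, at -0.78, and Pik3cg at -0.48; the median was -0.19, beside 0.02 over all genes. Of 19 transcription factors known for trafficking genes 2 rose and 1 fell in N1c: Ahr (0.54) and Lef1 (0.43) rose and Bach2 changed by -0.58. In N1c_RBPJdel against N1c 8 of 19 fell and none rose, where 4.65% of all genes fell and 4.58% rose (median -0.38, beside 0.02 over all genes), with Satb1 at -0.74, Lef1 at -0.70, Klf3 at -0.58 and Ahr at -0.45. In RBPJdel against control Cxcr3 was the only gene of the 6 lists to pass; at an unadjusted p under 0.05 there were 2 of the adhesion, 3 of the signalling and 4 of the transcription factor genes.

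Genes most like a receptor were ranked by Pearson's r of log2 values over the 15 arrays, as a description. For Gpr183 these were Prag1 (r = 0.977), Naip5 (0.977), Dennd2d (0.967) and Naip6 (0.966), of which Naip5 and Naip6 are paralogs and may share hybridisation signal. For Gpr15 they were Cd22 (0.930), Gjb2 (0.929), Abcb1a (0.923) and Cst7 (0.921). Once group means were taken out, r was 0.196 to 0.495 for the 4 genes of Gpr183 and -0.03 to 0.16 for the 4 of Gpr15. For S1pr1 the genes were Ncoa3 (0.966), Igf1r (0.954), Mtmr3 (0.948) and Crybg1 (0.924), with r of 0.769 to 0.930 without group means. Cxcr5 was most like Matk (0.952), Cybb (0.928), Plekhg3 (0.921) and B4galnt4 (0.917), and Ccr6 most like Fam124b (0.893), Dhrs11 (0.883), Crybg3 (0.883) and Sun1 (0.875). All points share the 4 groups, so these values describe these arrays only.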

How the data were processed

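RNA of sorted splenic Treg was measured on 15 Affymetrix whole-transcript mouse arrays. The deposited values are intensities on a linear scale, deposited per transcript cluster; the submitters' processing notes name RMA and Affymetrix Power Tools, with versions and filters not given in the sources used here. Values were converted to log2 and otherwise used as deposited. They ran from 5.61 to 18029.7, with a median per array of 107.1 to 117.2. Of 24922 transcript clusters, 21425 named 1 gene, and the brightest per gene was kept, which left 19752 genes with no filter on dim ones. Each receptor had 1 such cluster.

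All 15 arrays entered one limma fit (version 3.58.1, R 4.3.3) with a mean for each group, which had 11 residual and 6.15 prior degrees of freedom. Two-sided p-values were adjusted after Benjamini and Hochberg over all 19752 genes within each of 6 comparisons, with a threshold of 0.05. The fit was tested on simulated data. The labels do not say whether pools shared mice, so p-values measure the spread between arrays, whose number limits the precision. The receptors, gene lists and cell type markers were chosen with earlier results of these data known. The genes named are the 10 receptors, Rbpj, Notch1 and Foxp3, up to 4 genes per list past the threshold by smallest p in the first 3 comparisons, and the 4 genes most like each of 5 receptors. Marker genes named beside a result were chosen after their values were seen.

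Titles number the arrays, and deviations from group means were correlated between arrays of the same number. The pairs of N1c and control gave r of 0.417, 0.341 and 0.497, above the 0.1 required of every pair, so these groups count as paired. RBPJdel and control had 1 pair at 0.0711 and do not, nor do the other groups. Number 4 gave 0.417 for RBPJdel with control and 0.457 for RBPJdel with N1c. Arrays of unlike number were not correlated, so r does not show that the number marks a pair.

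Alternatives were quantile normalization, an offset of 32 before log2, brighter genes only, the mean of a gene's clusters, only the groups compared, array weights, the number as a replicate block, and leaving out each array. Using N1c_RBPJdel 2 alone for its group was added after the data were seen. Promoter sequences are those of RefSeq on GRCm38.p6, where 7 of the 10 receptors had an entry.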

Additional observations from a re-analysis of the deposited data

Results flagged for a closer look

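The effect of active Notch1 differed with the deletion of Rbpj for 2 receptors, by the test of the interaction. For Gpr183 the difference was -0.91 on the log2 scale (adjusted p = 0.0475), since the N1c effect was 0.51 with the deletion and 1.42 without it; this call was lost in 16 of 22 alternatives (adjusted p up to 0.271). For Ccr6 it was 1.01 (adjusted p = 0.0131), from 0.20 with the deletion and -0.81 without it, and this call held in all 22. N1c_RBPJdel was sorted on another instrument, which cannot be told apart from the genotype. On log2 values Dixon's test flagged no array in 30 tests of the receptors (10 receptors in the 3 groups of 4 arrays), where chance flags about 1 in 20. The result depends on the scale, and RBPJdel 4, at 1851 for Cxcr4 against 326 to 481 in its group, was not flagged. The arrays of N1c_RBPJdel were not tested.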

How the results depend on the processing

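Of 1420 receptor values under the alternatives, 1319 kept their direction, where called, and their side of the threshold, 77 lost a call, 24 gained one and none reversed a call. Leaving out 1 array gave 217 to 383 genes called in N1c against control (326 on all arrays), 17 to 26 in RBPJdel against control (22), 903 to 3058 in N1c_RBPJdel against N1c (1823), 530 to 3088 against control (1757), 76 to 1890.0 against RBPJdel (452) and 101 to 478 for the interaction (166). Receptors called then ran from 5 to 6, at 1, from 5 to 6, 2 to 6, 0 to 4 and 1 to 3. The lowest counts for N1c_RBPJdel came without its array 1 and the highest gene counts without its array 2; the cause was not tested.

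Quantile normalization gave 1169 genes in N1c_RBPJdel against control and 1 receptor in the interaction, as did the offset of 32 (1 receptor). Brighter genes alone, which are fewer, gave 1187 and 192 in N1c_RBPJdel against N1c and RBPJdel. The fit of the groups alone, with fewer arrays, gave 561, 406 and 98 genes in N1c_RBPJdel against N1c, control and RBPJdel, with 3 receptors against control and 1 against RBPJdel. Array weights gave 733 genes in N1c, 189 with 2 receptors in RBPJdel, 257 in the interaction, and 2 receptors in N1c_RBPJdel against control. With N1c_RBPJdel 2 alone, assumed to vary like the other groups, there were 854, 732 and 226 genes against N1c, control and RBPJdel, with 1 receptor against RBPJdel.

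The replicate block over all arrays gave 494 genes in N1c, 3699 in N1c_RBPJdel against N1c, 3767 against control, 2107 with 5 receptors against RBPJdel, and 632 in the interaction. Within the groups compared the replicate block gave 45 genes in RBPJdel, 368 with 3 receptors in N1c_RBPJdel against N1c and 955 against control. Only N1c and control were paired by the rule, and there the block changed no receptor's call. Arrays give no read depth; the signal over background of dim receptors such as Gpr15, near the array medians, was not measured.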

Other observations

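Within N1c_RBPJdel most receptors were highest on 1 array and lowest on another. Array 2 had the highest value of its group for 8 of the 10 receptors and the lowest for Gpr15 and Ccr2, and array 3 had the lowest for 7. The same count was not made over all genes, so the pattern cannot be called particular to the receptors. The gaps differed between receptors: on arrays 1, 2 and 3 Cxcr5 read 256, 479 and 235 and Ccr8 389.7, 777 and 459, but S1pr1 read 1434, 1491 and 1375 and Gpr183 814, 1049.5 and 679.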
